A study of Homo sapiens with 47 samples.

Results

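The 46 genes described here act in mitosis and the G2/M transition. They were listed by symbol for these roles, with earlier results of these data known, and all 46 were found among the 58395 genes counted and passed the filter on low counts with 28025 genes in all. Ribosomal RNA-depleted total RNA was sequenced from HEK293T cells, a human embryonic kidney line that carries the SV40 large T antigen, in 3 wild-type libraries and in 3 libraries of an EAF1-mutant line derived from it. EAF1 is a partner of the elongation factor ELL in complexes that Mediator recruits through its subunit MED26. In the mutant line, CRISPR knock-in had replaced amino acids of the MED26-binding site of EAF1 by alanines on both alleles. The comparison asks how RNA levels differ in cells whose EAF1 lacks this site. The methods of the study name 1 mutant line, screened as a clone, so the mutation and other properties of that line cannot be told apart. The study's methods call its replicates biological, but the labels do not say that these libraries came from separate cultures, so p-values measure the spread between these libraries. Total counts were 59137210, 52541541 and 55637032 in the wild-type libraries and 57198018, 53369621 and 66611451 in the EAF1-mutant libraries. Levels are given as CPM, counts scaled to a common library size, on the scale of TMM, which corrects library totals for composition.

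EAF1 and marker genes were examined first. Since the knock-in exchanges codons only, reads from the mutated EAF1 gene are still counted and its level is no check of the genotype. EAF1 had 57.5, 58.4 and 56.5 CPM in the wild-type libraries and 19.7, 17.9 and 18.8 CPM in the EAF1-mutant libraries. These groups lay far apart (log2 fold change -1.61, SE 0.05, edgeR adjusted p = 2.48e-18), and the other tested genes within 5 Mb of EAF1 had a median log2 fold change of -1.45. Its paralogue EAF2 had 4.49, 4.33 and 3.55 CPM in wild type and 8.31, 8.45 and 7.49 CPM in the mutant, all higher than in wild type (log2 fold change 0.97, SE 0.09, edgeR adjusted p = 5.03e-09). Of 6 markers of the HEK293 lineage, the neurofilament genes NEFL and NEFM were the most abundant, with wild-type means of 53.4 and 62.4 CPM, while PAX2 was near the limit of detection with 0.679 CPM. NEFM was lower in the mutant (log2 fold change -1.31, edgeR adjusted p = 1.35e-15). Summed over the 6 markers, the libraries held 128.9, 138.7 and 140.2 CPM in wild type and 92.3, 91.0 and 92.8 CPM in the mutant. Most of this fall was that of NEFM, with means of 62.4 and 25.1 CPM, and the median log2 fold change of the 6 was -0.15. The study also used HCT116 and HeLa cells. Of 6 colon markers of HCT116, CDX1 and CEACAM5 did not exceed 0.0374 CPM and LGALS4 and KRT20 did not exceed 0.218 CPM in any library, while CDX2 and VIL1 were present at wild-type means of 18.7 and 26.4 CPM. Of 6 markers of HeLa, S100A6 was at 0 in all 6 libraries, KRT5 and KRT7 were each at 0 in 5 of the 6, and CAV1 was the most abundant with 5.74 CPM in wild type.

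Cells enter mitosis when CDK1 bound to cyclin B becomes active, and leave it when the anaphase-promoting complex (APC/C) destroys cyclin B and securin. In between, chromosomes condense, kinetochores capture spindle microtubules, and the spindle checkpoint holds back the APC/C until every kinetochore is attached. RNA of many mitotic genes rises in G2 under the MuvB complex with B-MYB and FOXM1, which acts on CHR elements in promoters, and cycling cell lines contain it because part of the population is always in G2 or mitosis.

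Most mitotic genes had slightly less RNA in EAF1-mutant cells. Of the 46, 33 (71.7%) were lower at an adjusted p under 0.05 and 3 were higher, beside 25.6% lower and 25.9% higher among all 28025 tested genes (edgeR's quasi-likelihood test, Benjamini-Hochberg adjustment over all tested genes). Among the 8767 tested genes that averaged 20 CPM or more, a level every mitotic gene reached and a comparison chosen after seeing the data, 43.9% were lower and 26.6% higher. The 46 genes had a median log2 fold change of -0.20, with quartiles of -0.32 and -0.09, beside 0.01 over all tested genes and -0.06 over those of 20 CPM or more. Taken by library against the wild-type mean, the median was -0.18, -0.23 and -0.19 in the 3 EAF1-mutant libraries. Summed over the 46 genes, RNA was 6468.0, 6676.7 and 6507.8 CPM in the wild-type libraries and 5928.7, 5704.2 and 5772.9 CPM in the EAF1-mutant libraries, and every mutant sum was below every wild-type sum. As a share of all counts, without TMM, the 46 genes held 0.619%, 0.642% and 0.626% in wild type and 0.617%, 0.594% and 0.598% in the mutant, a smaller distance in which EAF1-mutant replicate 1 came close to wild-type replicate 1. In bulk RNA, fewer cells in G2 or mitosis and less RNA per such cell cannot be told apart.

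The changes were small, and few genes passed a threshold on size. With a limit of 0.01 on the adjusted p and of 0.5 on the size of the log2 fold change (edgeR), 1 mitotic gene was higher and 3 were lower, beside 11.0% higher and 9.36% lower among all tested genes. Among tested genes of 20 CPM or more, 3.87% were higher and 12.3% lower. The 3 lower genes became 2 on library totals, where NUF2 was at -0.43, 5 with DESeq2 or with its size factors, 6 without EAF1-mutant replicate 1 or without wild-type replicate 3, and 5 without EAF1-mutant replicate 3 or without wild-type replicate 1. ECT2, KIF11 and NEK2 lay just inside the limit on size, with log2 fold changes of -0.50, -0.49 and -0.48. In 32 of the 46 genes all 3 EAF1-mutant libraries lay below all 3 wild-type libraries and in 5 they lay above, beside 28.1% and 29.2% of all tested genes. Of the 8767 genes of 20 CPM or more, they lay below in 4002 and above in 2524. The scaling matters for differences of this size. When libraries were scaled by their totals instead, the median of all tested genes moved from 0.01 to 0.13 and that of the mitotic genes from -0.20 to -0.08, and that of genes of 20 CPM or more from -0.06 to 0.05. Such a scaling shifts all genes by about the same amount, so the difference of -0.21 between the mitotic genes and all tested genes is the same under either by construction. On library totals, 22 mitotic genes passed as lower and 9 as higher at 0.05 (edgeR), beside 18.0% and 36.5% of all tested genes, and 69.4% of all genes past the size threshold were higher instead of 53.9%. Of the 8767 genes of 20 CPM or more, 2647 were then lower and 3755 higher. The groups below are to be read against these values where their counts are on library totals. There, CCNB1, CDCA3, AURKB, TTK, CENPE, CENPF, HMMR, GTSE1, CKAP5, PLK1 and CDK1 no longer passed as lower, and CCNB2, CDC25C, BUB3, CDC20, KIF20A and TACC3 passed as higher.

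**Figure D1:**
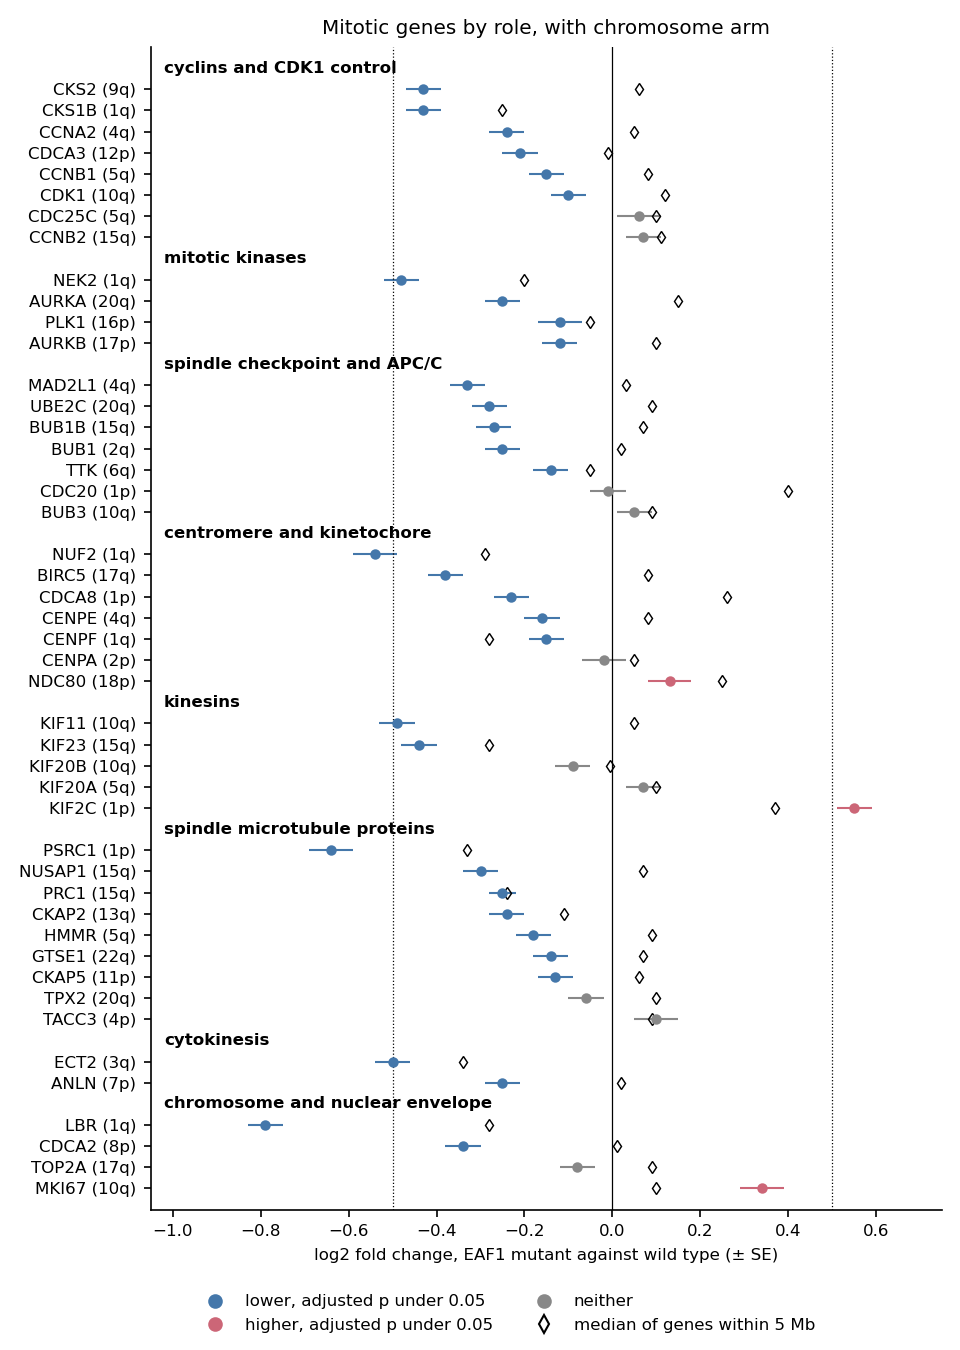
The log2 fold change of each of the 46 genes (points, with the standard error from edgeR) is plotted by role, with the chromosome arm beside each symbol and the median of other tested genes within 5 Mb as an open diamond; dotted lines mark 0.5 in size. LBR (-0.79), PSRC1 (-0.64) and NUF2 (-0.54) lie below the lower line and KIF2C (0.55) lies above the upper one; on library totals, CDK1, CDC20, CENPA, KIF20B, TPX2 and TOP2A change sign.

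LBR, the lamin B receptor that ties chromatin to the inner nuclear membrane (ENSG00000143815, chromosome 1, 225401502 to 225428925 in GRCh38, minus strand), showed the largest difference of the 46. It had 352.5, 343.7 and 335.1 CPM in wild-type libraries and 201.8, 199.0 and 195.3 CPM in EAF1-mutant libraries. The groups were far apart, with RNA that fell by 42.2% (log2 fold change -0.79, SE 0.04, edgeR adjusted p = 1.00e-14). The other genes of the group of chromosome and nuclear envelope proteins differed from it and from each other. MKI67, the proliferation marker that coats mitotic chromosomes, had 204.0, 235.9 and 246.7 CPM in wild type and 281.5, 298.3 and 291.4 CPM in the mutant. All mutant libraries were above all wild-type ones, and wild-type replicate 1 was the lowest of the 6 (log2 fold change 0.34, SE 0.05, edgeR adjusted p = 3.22e-06). TOP2A, the topoisomerase that untangles sister chromatids, had 572.3, 609.0 and 580.9 CPM in wild type and 573.3, 539.3 and 549.8 CPM in the mutant. These ranges overlapped, and the test did not pass (log2 fold change -0.08, edgeR adjusted p = 0.0609), although it passed with DESeq2 (adjusted p = 0.0354) and without wild-type replicate 1, wild-type replicate 3 or EAF1-mutant replicate 1 (adjusted p = 0.0162, 0.0383 and 0.0258). Over all alternatives its adjusted p ran from 0.0162 to 0.507. CDCA2, which brings protein phosphatase 1 to chromosomes at mitotic exit, was lower (log2 fold change -0.34).

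Among cyclins and regulators of CDK1, 6 of 8 genes were lower, beside 25.6% of all tested genes and 43.9% of those of 20 CPM or more, with a median log2 fold change of -0.18. On library totals 3 were lower and 2 higher, with a median of -0.06. The 2 largest falls were those of CKS2 and CKS1B, small subunits that bind CDKs and help them phosphorylate their substrates. CKS2 had 76.7, 72.1 and 72.1 CPM in wild type and 57.0, 52.8 and 54.2 CPM in the mutant (log2 fold change -0.43, SE 0.04, edgeR adjusted p = 7.58e-09). CKS1B had 65.7, 68.6 and 68.6 CPM in wild type and 51.3, 50.1 and 48.7 CPM in the mutant (log2 fold change -0.43, SE 0.04, edgeR adjusted p = 3.09e-09). In either gene the mutant libraries lay well below the wild-type ones. Per kilobase of exon, CKS2 was the most abundant of the 46, at 119.5 CPM per kb in wild type. The cyclins themselves differed less. CCNA2, which acts in S phase and G2, had a log2 fold change of -0.24, and CCNB1, the main mitotic cyclin, had -0.15. CCNB2 had 44.8, 48.0 and 44.9 CPM in wild type and 48.5, 47.8 and 48.2 CPM in the mutant, which overlapped (log2 fold change 0.07, edgeR adjusted p = 0.163). CDK1 was lower by a log2 fold change of only -0.10 (edgeR adjusted p = 0.0318), which became 0.01 on library totals and did not pass with a filter at 1 CPM (adjusted p = 0.0563) or without EAF1-mutant replicate 2 or 3 (adjusted p = 0.199 and 0.0744, in a range of 0.0153 to 0.791 over all alternatives). CDC25C, the phosphatase that activates CDK1, was at 0.06 and did not pass the test, and CDCA3, which triggers destruction of the CDK1 inhibitor WEE1, was lower at -0.21.

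All 4 mitotic kinases were lower, beside 25.6% of all tested genes and 43.9% of those of 20 CPM or more, with a median of -0.19. Only NEK2 and AURKA passed on library totals, where the median was -0.07. NEK2, a centrosome kinase, had 48.8, 49.0 and 47.9 CPM in wild type and 36.4, 33.3 and 34.9 CPM in the mutant. Each mutant library was about as far below wild type as the others (log2 fold change -0.48, SE 0.04, edgeR adjusted p = 1.95e-09). AURKA, which matures centrosomes and builds the spindle, had a log2 fold change of -0.25. AURKB, the kinase of the chromosomal passenger complex and the most abundant of the 4 per kilobase, had 73.6, 72.0 and 73.3 CPM in wild type and 66.4, 67.9 and 67.4 CPM in the mutant. The groups did not overlap, but the difference was small (log2 fold change -0.12, SE 0.04, edgeR adjusted p = 0.0111), and it did not pass on library totals (adjusted p = 0.964, in a range of 0.00409 to 0.964 over all alternatives). PLK1, needed for mitotic entry and cytokinesis, was also at -0.12, but its groups overlapped and its adjusted p of 0.0476 (edgeR) ran from 6.66e-04 to 0.949 over the alternatives. It did not pass with DESeq2 (adjusted p = 0.0552), with a filter at 1 CPM (adjusted p = 0.0844) or without EAF1-mutant replicate 1, EAF1-mutant replicate 2 or wild-type replicate 3 (adjusted p = 0.200, 0.0829 and 0.236).

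Of the 7 genes of the spindle checkpoint and its target, the APC/C, 5 (71.4%) were lower, beside 25.6% of all tested genes and 43.9% of those of 20 CPM or more, with a median of -0.25. Scaled by library totals, 4 were lower and 2 higher, with a median of -0.14. MAD2L1, which binds and inhibits the APC/C activator CDC20, had 142.3, 153.3 and 139.2 CPM in wild type and 121.2, 109.4 and 114.6 CPM in the mutant. It had the largest fall of this group, and its groups did not overlap (log2 fold change -0.33, SE 0.04, edgeR adjusted p = 7.22e-07). UBE2C, the ubiquitin-conjugating enzyme of the APC/C and the most abundant of the group per kilobase in wild type, had 76.3, 72.9 and 80.2 CPM in wild type and 64.5, 61.9 and 62.2 CPM in the mutant. All mutant libraries were below all wild-type ones (log2 fold change -0.28, SE 0.04, edgeR adjusted p = 4.24e-06). The checkpoint genes BUB1B and BUB1 had log2 fold changes of -0.27 and -0.25, and the kinase TTK was at -0.14. CDC20 had 114.6, 113.2 and 121.7 CPM in wild type and 113.8, 116.1 and 116.5 CPM in the mutant. These values overlapped throughout (log2 fold change -0.01, edgeR adjusted p = 0.806), and on library totals CDC20 was higher at 0.10 (adjusted p = 0.0279, in a range of 0.0279 to 0.966). BUB3, a WD-repeat protein that carries BUB1 to kinetochores, had 201.2, 205.4 and 198.9 CPM in wild type and 216.1, 203.8 and 207.1 CPM in the mutant, also overlapping (log2 fold change 0.05, edgeR adjusted p = 0.260).

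In the group of centromere and kinetochore genes, 5 of 7 were lower and 1 was higher, beside 25.6% and 25.9% of all tested genes and 43.9% and 26.6% of those of 20 CPM or more, with a median of -0.16. On library totals 3 were lower and 1 higher, with a median of -0.05. NUF2 and NDC80 encode subunits that pair tightly in the NDC80 complex, the microtubule anchor of the kinetochore, and their RNA was lower and higher, respectively, although genes within 5 Mb of NDC80 had a median of 0.25 and those near NUF2 one of -0.29. NUF2 (ENSG00000143228, chromosome 1, 163266576 to 163355764, plus strand) had 47.2, 50.3 and 45.3 CPM in wild type and 33.4, 32.4 and 32.3 CPM in the mutant. The mutant libraries were tightly grouped below wild type (log2 fold change -0.54, SE 0.05, edgeR adjusted p = 5.16e-10). NDC80 had 36.7, 37.9 and 33.7 CPM in wild type and 40.4, 38.6 and 39.3 CPM in the mutant. Its mutant libraries were above wild type (log2 fold change 0.13, edgeR adjusted p = 0.0236), but this call was lost with DESeq2 (adjusted p = 0.0912) and without wild-type replicate 3, EAF1-mutant replicate 1 or EAF1-mutant replicate 3 (adjusted p = 0.300, 0.0919 and 0.0631, in a range of 9.43e-05 to 0.300 over all alternatives). CENPF, a large protein of the outer kinetochore and the most abundant of the group per kilobase, had 638.1, 657.1 and 619.0 CPM in wild type and 598.4, 567.3 and 562.0 CPM in the mutant. It was lower in every mutant library (log2 fold change -0.15, SE 0.04, edgeR adjusted p = 0.00166), but did not pass on library totals (adjusted p = 0.49, in a range of 1.02e-04 to 0.49). BIRC5 (survivin) and CDCA8 (borealin), subunits of the chromosomal passenger complex, were lower at -0.38 and -0.23, and the kinesin CENPE was lower at -0.16. CENPA, the histone H3 variant that marks centromeres, had a log2 fold change of -0.02 and did not pass the test.

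Of the 5 kinesins 2 (40.0%) were lower and 1 was higher, beside 43.9% lower and 26.6% higher among tested genes of 20 CPM or more, with a median of -0.09 that became -0.15 without wild-type replicate 3. With library totals 2 were lower and 2 higher, with a median of 0.02. KIF2C (ENSG00000142945, chromosome 1, 44739818 to 44767767, plus strand) encodes MCAK, which depolymerizes microtubules to correct faulty attachments. It had 84.9, 81.2 and 83.3 CPM in wild type and 124.4, 120.8 and 120.7 CPM in the mutant. All mutant libraries were well above all wild-type ones (log2 fold change 0.55, SE 0.04, edgeR adjusted p = 1.24e-11). KIF11, the motor that pushes spindle poles apart, had 133.2, 143.9 and 141.0 CPM in wild type and 101.8, 94.1 and 100.7 CPM in the mutant. It was clearly lower (log2 fold change -0.49, SE 0.04, edgeR adjusted p = 4.44e-10), and in wild type was the most abundant kinesin of the 5 per kilobase, at 26.2 CPM per kb. KIF23, the motor of the centralspindlin complex, was lower at -0.44. KIF20A and KIF20B, which act at the central spindle and in cytokinesis, had log2 fold changes of 0.07 and -0.09 and did not pass the test, though KIF20B passed without wild-type replicate 3 (edgeR adjusted p = 0.00517, in a range of 0.00517 to 0.699).

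Of 9 spindle microtubule proteins, 7 (77.8%) were lower, beside 25.6% of all tested genes and 43.9% of those of 20 CPM or more, with a median of -0.18. Scaled by library totals, 4 were lower and 1 higher, with a median of -0.06. PSRC1 (ENSG00000134222, chromosome 1, 109279556 to 109283186, minus strand), which recruits a kinesin to spindle microtubules, had 31.2, 30.3 and 32.2 CPM in wild type and 19.8, 19.6 and 20.5 CPM in the mutant. The spread within each group was small beside the distance between them (log2 fold change -0.64, SE 0.05, edgeR adjusted p = 4.45e-11). TPX2, which activates AURKA on the spindle and was the most abundant of the 9 per kilobase, had 161.8, 172.1 and 176.6 CPM in wild type and 163.2, 162.2 and 162.8 CPM in the mutant. These overlapped through wild-type replicate 1 (log2 fold change -0.06, edgeR adjusted p = 0.167), and without that library the test passed (adjusted p = 0.0145, in a range of 0.0145 to 0.327). TACC3, which crosslinks kinetochore fibres, had 69.4, 75.0 and 80.8 CPM in wild type and 74.4, 80.7 and 85.6 CPM in the mutant, an overlap of most of the range (log2 fold change 0.10, edgeR adjusted p = 0.126). It passed the test without EAF1-mutant replicate 1 (adjusted p = 0.0309) or wild-type replicate 3 (adjusted p = 0.0456), in a range of 0.00136 to 0.656 over all alternatives. The lower genes NUSAP1, PRC1, CKAP2, HMMR, GTSE1 and CKAP5 had log2 fold changes from -0.30 to -0.13. Both cytokinesis genes were lower, beside 25.6% of all tested genes and 43.9% of those of 20 CPM or more. On library totals both also passed as lower, beside 18.0% of all tested genes. ECT2, the exchange factor that activates RhoA at the cell equator, had 145.4, 151.2 and 150.4 CPM in wild type and 106.6, 103.4 and 106.1 CPM in the mutant. Its groups were far apart (log2 fold change -0.50, SE 0.04, edgeR adjusted p = 4.92e-11), and it stood just inside 0.5 in size. ANLN, the anillin scaffold of the contractile ring and the more abundant of the pair per kilobase, had 198.4, 201.1 and 191.2 CPM in wild type and 169.7, 164.9 and 163.1 CPM in the mutant (log2 fold change -0.25, SE 0.04, edgeR adjusted p = 3.91e-06).

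**Figure D2:**
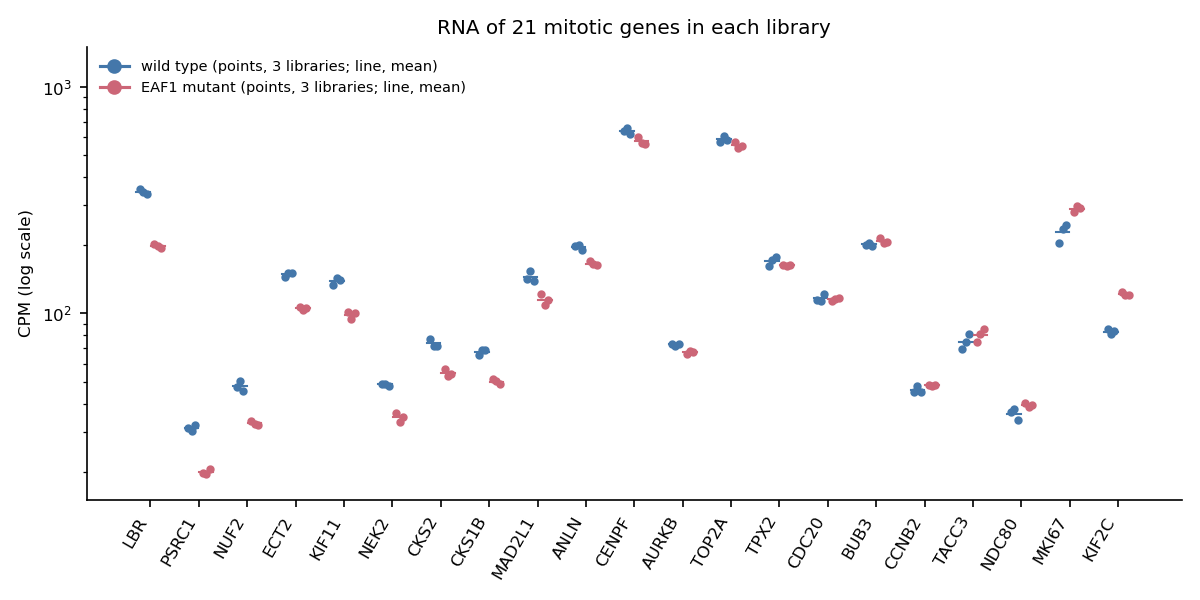
CPM in each library (log axis) is plotted for 21 of the 46 genes, ordered by log2 fold change, with points for the 3 wild-type and the 3 EAF1-mutant libraries and a line at each mean. The mutant points lie below the wild-type points from LBR to AURKB, overlap with them from TOP2A to TACC3, and lie above them for NDC80, MKI67 and KIF2C.

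Levels ranged widely within the 46 genes while replicates lay close together. Per kilobase of exon in wild type, CKS2 (119.5 CPM per kb), TOP2A (92.2) and CCNB1 (83.5) were the most abundant, and CDC25C (7.39), TACC3 (8.51) and CDCA3 (8.62) the least. Counts of a mitotic gene in a library ran from 1092 to 38807. The median coefficient of variation of the 46 genes was 2.94% over the wild-type libraries and 2.78% over the EAF1-mutant libraries. Exons of 15 of the 46 genes overlap those of another counted gene, and 13 have annotated pseudogene copies, among them CKS1B with 7 and UBE2C with 5. The sources do not state how the authors' counting treated strand or reads with several matches, so counts of such genes are uncertain. PRC1 shares 3181 exonic bases with another annotated gene on its strand that had 243.4 CPM, and KIF2C shares 175 bases with a gene on the opposite strand at 112.8 CPM.

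Differences of the mitotic genes were set beside those of other genes on the same chromosome arm and nearby. The 46 genes lie on 23 chromosome arms, whose other tested genes had median log2 fold changes between -0.29 and 0.10. The lowest of these medians was that of the long arm of chromosome 1, which holds LBR, NUF2, NEK2, CKS1B and CENPF. All 5 were lower at an adjusted p under 0.05 (edgeR), with a median of -0.48, as were 28 of the 41 genes on other arms, with a median of -0.16. Of the other tested genes of 20 CPM or more, 89.9% of 397 on that arm and 41.6% of 8324 elsewhere were lower, and without that limit on CPM 50.7% and 24.4%. On library totals 4 of the 5, all but CENPF, and 18 of the 41 were lower, beside 18.0% of all tested genes. Genes within 5 Mb gave a finer picture. KIF2C and CDC20 lie on the short arm of chromosome 1, where other genes within 5 Mb had medians of 0.37 and 0.40. The median was -0.33 around PSRC1 on the same arm, and -0.34 around ECT2 on the long arm of chromosome 3, although each of these arms as a whole had a median above 0. After subtracting the median within 5 Mb, KIF2C was at 0.18, PSRC1 at -0.31, ECT2 at -0.16, NUF2 at -0.25 and LBR at -0.51, while KIF11, whose neighbours had a median of 0.05, was at -0.54. Others moved away from 0, such as CDC20 to -0.41, CDCA8 to -0.49 and AURKA to -0.40, and NDC80, near genes with a median of 0.25, went from 0.13 to -0.12. In all, 22 genes came nearer to 0 and 24 moved farther from it. Of the 46 genes, 42 were below the median of their neighbours and 38 below that of their arm, and the median of the 46 was -0.22 after subtracting the former and -0.18 after subtracting the latter. Copy number was not measured in these libraries, and its part in these differences was not tested.

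**Figure D3:**
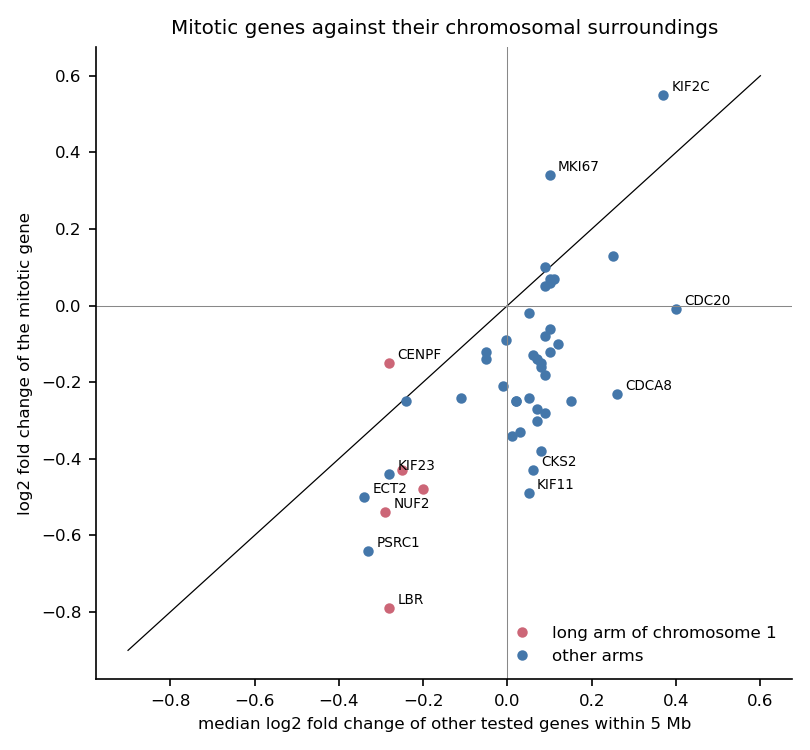
The log2 fold change of each mitotic gene is plotted against the median log2 fold change of the other tested genes within 5 Mb; the line marks equal values and genes of the long arm of chromosome 1 are in red. Of the 46 points 42 lie below the line, and KIF2C, MKI67, CENPF and TACC3 lie above it.

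The 46 genes were listed by role and not by promoter sequence. Since many mitotic genes are known to be regulated through CHR elements, the share with these letters is not independent of that choice. RefSeq promoter sequences (GRCh38.p14, 250 bases before to 50 after the start site) were found for 39 of the 46, of which 4 have more than 1 promoter; BUB3, TTK, AURKA, UBE2C, BIRC5, TPX2 and CDCA2 have no entry. Searched on both strands, the CHR letters TTTGAA were in a promoter of 27 of the 39 genes (69.2%) and of 18.2% of all 27305 genes with an entry. They lay within 50 bases of the start site in 24 of the 39 (61.5%), beside 5.77% of all genes. The variant TTCGAA was in 3 of 39 (7.69%), beside 1.82% of all genes. The letters CCAAT, bound by NF-Y, were in 30 of 39 (76.9%), beside 39.7% of all genes, and any of the E2F letters TTTCCCGC, TTTCGCGC, TTTGCCGC or TTTGGCGC were in 3 of 39 (7.69%), beside 3.99% of all genes. Counted by promoter instead of by gene, 30 of 45 (66.7%) held TTTGAA, beside 15.2% of all 35116 promoters, and 33 of 45 (73.3%) held CCAAT, beside 34.6%. The median log2 fold change was -0.18 for mitotic genes with TTTGAA and -0.20 for those without, -0.21 and -0.15 for either CHR form, -0.16 and -0.24 for CCAAT, and -0.15 and -0.24 for TTTGAA together with CCAAT. These differences were not tested. The sequences shown are those of the 4 genes past the size threshold, with MKI67, the second largest rise of the 46, and CCNB2 and PLK1 as mitotic regulators whose promoters hold both TTTGAA and CCAAT. Each runs from 120 bases before to the base 30 after the start site, with any of these motifs in capitals.
CCNB2, chr15:59105026-59105175, plus strand: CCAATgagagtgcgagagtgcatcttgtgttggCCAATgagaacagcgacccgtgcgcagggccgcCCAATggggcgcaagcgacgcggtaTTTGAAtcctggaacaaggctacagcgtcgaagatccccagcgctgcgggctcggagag
PLK1, chr16:23678769-23678918, plus strand: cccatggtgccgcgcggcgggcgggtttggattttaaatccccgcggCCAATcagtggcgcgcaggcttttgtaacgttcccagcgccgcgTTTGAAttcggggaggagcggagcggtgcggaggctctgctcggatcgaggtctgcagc
MKI67, chr10:128126394-128126543, minus strand: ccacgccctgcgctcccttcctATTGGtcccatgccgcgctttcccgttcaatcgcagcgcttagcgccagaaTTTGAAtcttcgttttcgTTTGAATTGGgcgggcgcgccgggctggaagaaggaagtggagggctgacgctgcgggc
NUF2, chr1:163321834-163321983, plus strand: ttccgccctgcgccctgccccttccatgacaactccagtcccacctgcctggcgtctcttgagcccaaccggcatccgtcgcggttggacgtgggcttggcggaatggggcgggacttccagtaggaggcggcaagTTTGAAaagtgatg
PSRC1, chr1:109283116-109283265, minus strand: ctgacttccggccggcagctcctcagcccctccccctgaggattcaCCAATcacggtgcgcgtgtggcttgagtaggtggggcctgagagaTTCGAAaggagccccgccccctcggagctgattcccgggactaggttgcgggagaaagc
KIF2C, chr1:44739717-44739866, plus strand: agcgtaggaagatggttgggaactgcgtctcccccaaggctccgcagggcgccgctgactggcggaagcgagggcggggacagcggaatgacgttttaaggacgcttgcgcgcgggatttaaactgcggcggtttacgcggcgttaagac
LBR, chr1:225428792-225428941, minus strand: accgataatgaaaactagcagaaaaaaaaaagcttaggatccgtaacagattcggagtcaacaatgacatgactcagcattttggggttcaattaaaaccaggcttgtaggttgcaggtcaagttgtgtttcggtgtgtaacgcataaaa
In CCNB2 and PLK1, TTTGAA begins 29 bases before the start site, downstream of the CCAAT letters shown, 3 in CCNB2 and 1 in PLK1. PSRC1, which fell, has TTCGAA at the same distance, downstream of 1 CCAAT. MKI67, which rose, has TTTGAA in 2 places and CCAAT in 2 as its reverse complement ATTGG, of which 1 overlaps a TTTGAA by 1 base. NUF2, which fell, has TTTGAA beginning at base 17 after the start site of its entry. That start site lies inside the NUF2 range given above and not at its first base, 163266576. The PLK1 sequence shown also lies inside the range of its gene, which begins at 23677656. NDC80, which rose by less and is not shown, has both TTTGAA and TTCGAA. KIF2C, which rose, and LBR, which fell the most of the 46, hold none of these motifs in their whole promoter entry, as did 5 of the 39 genes (12.8%) and 47.9% of all genes. A match describes letters in this window and does not show that a factor is bound there.

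**Figure D4:**
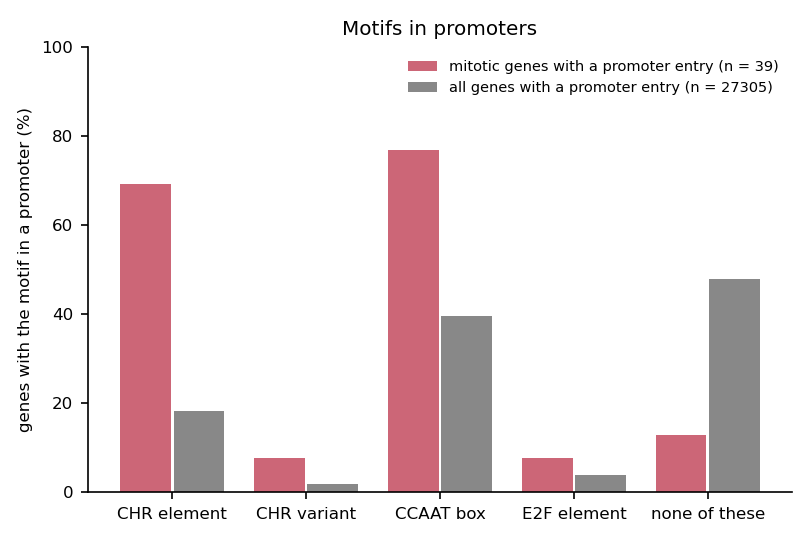
Bars give the share of the 39 mitotic genes with a promoter entry and of all 27305 genes with an entry that hold the CHR letters, the CHR variant, CCAAT, an E2F element or none of these (percent, in any promoter of the gene). The CHR letters were in 69.2% of the mitotic genes and 18.2% of all genes.

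Regulators of these genes and further mitotic genes were examined as lists of the pathway. The shares to read them against are 25.6% lower and 25.9% higher among all tested genes, and 43.9% and 26.6% among those of 20 CPM or more. For counts on library totals they are 18.0% lower and 36.5% higher among all tested genes. Of the 8767 genes of 20 CPM or more, 2647 were then lower and 3755 higher. Of 16 regulators of G2/M transcription, 8 passed the limit of 0.05 as lower and 4 as higher (edgeR), with a median of -0.06, while on library totals 5 were lower and 8 higher, with a median of 0.05. FOXM1, an activator of G2/M genes, had 66.3, 73.4 and 76.1 CPM in wild type and 62.0, 64.7 and 63.2 CPM in the mutant. It was lower (log2 fold change -0.18, SE 0.05, edgeR adjusted p = 0.00160), although on library totals it did not pass the test (adjusted p = 0.219, in a range of 1.07e-05 to 0.219). MYBL2, which encodes B-MYB, had 157.9, 154.1 and 175.1 CPM in wild type and 177.0, 185.8 and 190.2 CPM in the mutant, all above wild type (log2 fold change 0.18, SE 0.04, edgeR adjusted p = 0.00122). NFYC, a subunit of NF-Y, had 37.3, 36.3 and 39.6 CPM in wild type and 58.6, 61.0 and 62.0 CPM in the mutant. It was the only gene of this list past the size threshold (log2 fold change 0.68, SE 0.04, edgeR adjusted p = 4.87e-12), and other genes within 5 Mb had a median of 0.37. The other subunits NFYA and NFYB were lower at -0.27 and -0.25.

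Of 14 genes that control mitotic entry and exit, 8 (57.1%) were lower and 3 (21.4%) higher, beside 25.6% and 25.9% of all tested genes, with a median of -0.17. On library totals 7 were lower and 6 higher, with a median of -0.05. BORA, the activator of AURKA, was at -0.46 among genes within 5 Mb with a median of -0.45. Of the other lower genes, CDC25A (-0.44), CDC25B (-0.24), MASTL (-0.11) and ENSA (-0.30) had neighbours with medians of -0.77, -0.57, -0.23 and -0.26. Medians near PKMYT1 (-0.23), CCNF (-0.24) and HASPIN (-0.35) were 0.04, 0.04 and 0.10. WEE1, the kinase that restrains CDK1, was higher at 0.19. Of 17 APC/C subunits, inhibitors and other partners, 5 (29.4%) were lower and 2 (11.8%) higher. The share lower was near the 25.6% of all tested genes and below the 43.9% of those of 20 CPM or more. The share higher was below both backgrounds. On library totals 4 were lower and 9 higher. The median of -0.01 became 0.11 on library totals and lay from -0.04 to 0.01 when a library was left out, with -0.04 without EAF1-mutant replicate 1, -0.03 without wild-type replicate 1, -0.02 without wild-type replicate 2 and 0.01 without EAF1-mutant replicate 2. Of 32 further kinetochore genes, 20 (62.5%) were lower and 3 (9.38%) higher, with a median of -0.14, and on library totals 13 were lower and 10 higher, with a median of -0.03. CENPI, which helps deposit CENPA, had 68.2, 70.7 and 72.1 CPM in wild type and 46.0, 43.3 and 44.3 CPM in the mutant, on the long arm of chromosome X where other genes had a median of -0.34 (log2 fold change -0.66, SE 0.04, edgeR adjusted p = 3.06e-12). Of 21 cohesin and condensin genes, 15 (71.4%) were lower and 3 (14.3%) higher, with a median of -0.19, and on library totals 10 were lower and 5 higher, with a median of -0.08. The condensin subunit NCAPG2 had 154.7, 164.7 and 162.2 CPM in wild type and 94.7, 93.1 and 93.1 CPM in the mutant (log2 fold change -0.78, SE 0.04, edgeR adjusted p = 3.21e-14). SMC4, an ATPase of condensin, had 394.3, 426.2 and 407.4 CPM in wild type and 291.3, 277.8 and 279.9 CPM in the mutant (log2 fold change -0.53, SE 0.04, edgeR adjusted p = 2.78e-11). Other genes within 5 Mb of NCAPG2 and SMC4 had medians of -0.53 and -0.48.

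Of 20 other mitotic motors and spindle proteins, 13 (65.0%) were lower and 7 did not pass, with a median of -0.25, and on library totals 12 were lower and 5 higher, with a median of -0.13. KIF15, a motor that shares the work of KIF11, had 70.3, 74.0 and 70.4 CPM in wild type and 30.1, 27.5 and 28.7 CPM in the mutant. This was the largest fall in the 6 pathway lists (log2 fold change -1.32, SE 0.04, edgeR adjusted p = 5.26e-17), on the short arm of chromosome 3, where other genes had a median of -0.78. KIF4A, a kinesin of chromosome arms and the central spindle, had 83.4, 82.6 and 85.6 CPM in wild type and 53.2, 51.0 and 51.4 CPM in the mutant (log2 fold change -0.69, SE 0.04, edgeR adjusted p = 4.87e-13). It lies on the long arm of chromosome X, and genes within 5 Mb had a median of -0.56. Over the 6 lists together, 69 of 120 genes (57.5%) were lower and 15 (12.5%) higher, beside 25.6% and 25.9% of all tested genes and 43.9% and 26.6% of those of 20 CPM or more, with a median of -0.15. On library totals 51 were lower and 43 higher, beside 18.0% lower and 36.5% higher among all tested genes, with a median of -0.03. These pooled counts take no account of neighbouring genes. On the scale of TMM, DLGAP5 (-0.63) and ASPM (-0.47) lay among other genes within 5 Mb with medians of -0.59 and -0.37. Around KNL1 (-0.47) and SPC24 (-0.40) such medians were 0.07 and 0.15. How far the pooled counts follow differences of nearby genes was not tested.

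Genes of other cell cycle phases were measured for comparison. Of 44 S-phase genes, 24 (54.5%) passed the limit of 0.05 as lower and 9 (20.5%) as higher (edgeR), beside 25.6% and 25.9% of all tested genes and 43.9% and 26.6% of those of 20 CPM or more, with a median of -0.11. On library totals 17 were lower and 14 higher, beside 18.0% lower and 36.5% higher among all tested genes, with a median of 0.01. EXO1, an exonuclease of mismatch repair, had 161.9, 168.9 and 159.3 CPM in wild type and 88.0, 85.1 and 85.4 CPM in the mutant, on the long arm of chromosome 1 (log2 fold change -0.92, SE 0.04, edgeR adjusted p = 1.70e-15). PCNA, the sliding clamp of DNA polymerase, had 223.9, 228.7 and 223.8 CPM in wild type and 134.9, 131.2 and 133.4 CPM in the mutant, where other genes of its arm, the short arm of chromosome 20, had a median of -0.54 (log2 fold change -0.76, SE 0.04, edgeR adjusted p = 1.70e-14). Of 18 G1 cyclins, CDKs, inhibitors and E2F genes, 12 (66.7%) were higher and 5 lower, with a median of 0.21, and on library totals 13 were higher and 4 lower, with a median of 0.32. CDKN1A, which encodes the CDK inhibitor p21, had 10.5, 9.60 and 11.2 CPM in wild type and 45.5, 44.8 and 44.4 CPM in the mutant. This was the largest difference of any gene in these lists (log2 fold change 2.10, SE 0.05, edgeR adjusted p = 3.81e-19), and genes within 5 Mb had a median of 0.28. CDKN1C, which encodes the related inhibitor p57, had 3.22, 2.57 and 2.80 CPM in wild type and 5.19, 4.78 and 5.07 CPM in the mutant (log2 fold change 0.80, SE 0.10, edgeR adjusted p = 5.32e-07). E2F1 and CDKN2D also passed the size threshold, at 0.56 and 0.55. Whether the difference between the medians of the mitotic, S-phase and G1 lists exceeds chance was not tested.

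**Figure D5:**
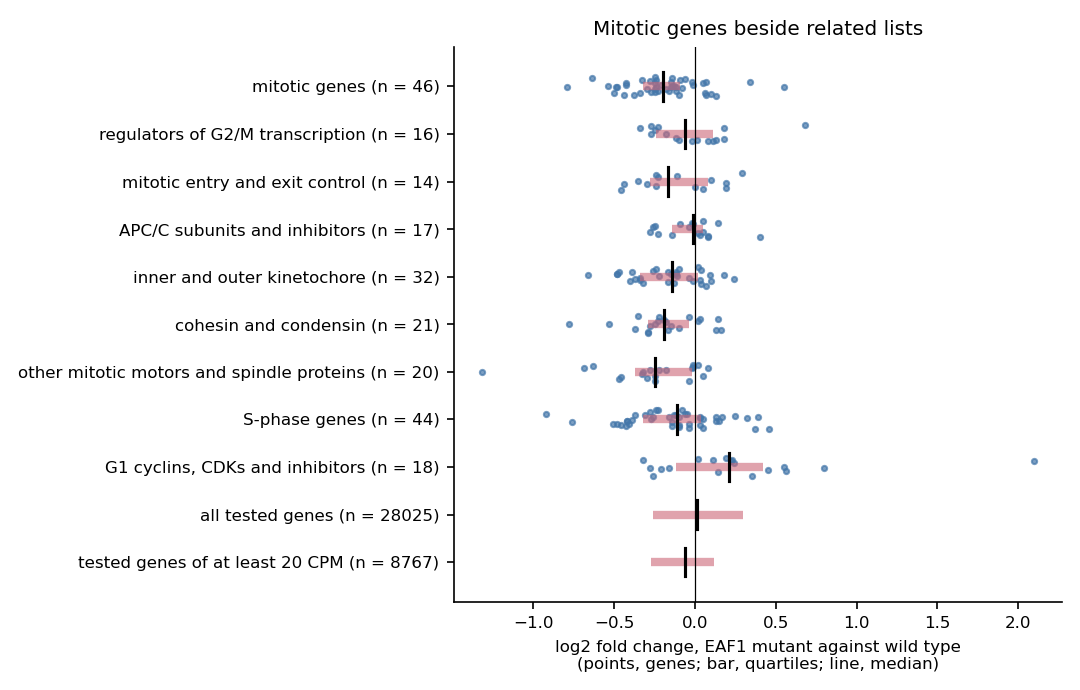
Each point is the log2 fold change of a gene in the EAF1 mutant against wild type, by list, with a bar from the lower to the upper quartile and a line at the median; for all tested genes and those of 20 CPM or more only the bar and line are drawn. The medians are -0.20 for the 46 mitotic genes, -0.11 for the S-phase genes, 0.21 for the G1 list and 0.01 for all tested genes; on library totals that of the S-phase genes is 0.01.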

How the data were processed

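Total RNA without ribosomal RNA had been sequenced in 3 wild-type and 3 EAF1-mutant HEK293T libraries, grouped by their labels. The other assays of the series were not used here. The authors mapped reads to GRCh38 with HISAT2, counted them per Ensembl gene and deposited raw counts. Gene symbols and positions came from GENCODE 44, which matched 57754 of 58395 identifiers; the other 641 held 2.81% of counts. In R 4.3.3, edgeR 4.0.16 was used for TMM scaling, filtering (filterByExpr) and the quasi-likelihood test, and p-values were adjusted by Benjamini and Hochberg over all 28025 tested genes. The smallest p that exact permutation of these groups allows is 0.1, so these p-values rest on the model. As a check of the code, the fit was run on simulated counts with a common spread and few changed genes. That run cannot test the scaling of these libraries. No set test was run. Replicate libraries differed beyond sampling noise in every pair (chi-square per degree of freedom at least 2.64). Chromosome arms were divided at approximate centromere positions entered by hand. Levels between genes were divided by merged exon length. Tables were made with Python 3.11.15, pandas 2.3.3 and numpy 2.4.6.

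Full values are given for mitotic genes past both limits, 0.01 on the adjusted p and 0.5 on the size of the log2 fold change, for the largest rise, the largest fall and the highest CPM per kilobase in each group (averaged over all 6 libraries), for up to 2 rises and 2 falls past that threshold in each pathway or comparison list, and for FOXM1, MYBL2, EAF1 and EAF2. UBE2C, the highest of its group in wild type alone, was given in full after its values were seen, and NFYA, NFYB, BORA, WEE1, E2F1 and CDKN2D were named after theirs were. The same holds for CDC25A, CDC25B, MASTL, ENSA, PKMYT1, CCNF, HASPIN, DLGAP5, ASPM, KNL1 and SPC24. The members and lists were chosen with earlier results of these data known. Alternatives were DESeq2 1.42.0, its size factors, library totals, 2 other filters, other thresholds, a replicate block, each library left out, and subtraction of the median of the arm or of genes within 5 Mb. Omission of members on the long arm of chromosome 1 or with overlapping exons, the background of 20 CPM or more and the shares lower on and off that arm were chosen after seeing the data.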

Additional observations from a re-analysis of the deposited data

How the results depend on the processing

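The median log2 fold change of the 46 mitotic genes was -0.20 and stayed below 0 under every alternative run. It was -0.08 on library totals, where the median of all tested genes was 0.13, and, in alternatives chosen after seeing the data, -0.16 without the members on the long arm of chromosome 1 and -0.16 without those whose exons overlap another gene. It ran from -0.22 to -0.18 when a library was left out. With other scalings, filters and left-out libraries, 22 to 35 mitotic genes were lower at an adjusted p under 0.05 instead of 33, and 9 were higher with library totals instead of 3. The 3 mitotic genes lower past the size threshold became 2 on library totals, 5 with DESeq2 or its size factors and 3 to 6 with a library left out, and the cause was not tested. With a limit of 1 on the size of the log2 fold change (edgeR), 0 mitotic genes were higher and 0 lower, since the largest difference was that of LBR at -0.79, beside 1452 higher and 698 lower among all tested genes. At an adjusted p under 0.05 of any size, 3 mitotic genes were higher and 33 lower, beside 7250 and 7170 of all. Of 72 single genes, 19 crossed the threshold of 0.05 on library totals, among them CDK1 (0.01) and CDC20 (0.10), which also changed sign, as that scaling moves all genes up. The threshold was crossed by 3 genes with DESeq2, 2 with its size factors, 2 with a filter at 1 CPM and at most 5 with a library left out. On library totals CENPA, KIF20B, TPX2 and TOP2A changed sign without passing in either fit. The replicate numbers did not pair the libraries: deviations of same-numbered libraries correlated at 0.0471, -0.181 and 0.200, and not every library correlated best with its own number. A replicate block left 33 mitotic genes lower and 3 higher, with a median of -0.20. Each mitotic gene had at least 1092 counts in every library, and groups of 3 were not tested for outlying libraries.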
